A study of Mus musculus with 15 samples.

Results

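The 4 nuclear factor I genes (Nfia, Nfib, Nfic and Nfix) and 5 POU homeobox genes (Pou3f1, Pou3f2, Pou3f3, Pou2f1 and Pou6f1) were examined for allelic expression in cortical organoids of hybrid mice. The 9 genes were taken by name from a table of 44260 genes, and all 9 were abundant enough to test. They were chosen with earlier results of these data known. Each of 3 libraries of day 12 organoids carried a Spret value and a B6 value per gene. The cells were SpretB6 hybrids with a genome copy from Spret, a wild-derived inbred strain of Mus spretus, and a copy from C57Bl/6J (B6), the standard laboratory strain. Both copies shared the same nuclei, so the design asks how far the 2 alleles of a gene differ in the same cells. The titles number the libraries C1 to C3, and they are called libraries 1 to 3 here. Separate cultures are not named for them, so the spread on which the p-values rest may be technical. The other 12 samples of the series, induced pluripotent stem cells of 4 crosses, were not analysed here.

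Nuclear factor I proteins bind DNA as dimers at a palindrome, of which a single arm reads TTGGCA in its fuller form. In the embryonic mouse cortex Nfia, Nfib and Nfix act in radial glia, where they promote differentiation and the onset of gliogenesis. POU proteins bind the octamer ATGCAAAT and its variants through a POU-specific domain joined to a homeodomain. Pou3f2 (Brn2) and Pou3f3 (Brn1) act together in the production and migration of upper layer cortical neurons in mice.

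Values are normalised allele-specific read numbers as the authors deposited them, in whole numbers. The Spret columns summed to 2337998, 2088788 and 2639912 and the B6 columns to 2701847, 2413876 and 3027078 in libraries 1, 2 and 3. The values carried the trace of a scale factor, from which roughly 2.02M, 1.64M and 3.93M Spret reads and 2.34M, 1.89M and 4.51M B6 reads were estimated. Spret held 47.74% ± 0.137 of autosomal values (SD, n = 3), 0.0941% ± 0.00595 of X-linked values and 99.45% ± 0.28 of Y-linked values. With the X-linked values almost wholly from B6 and the reverse cross not analysed here, an effect of strain and one of the parent that gave the allele cannot be told apart. The tissue label names epiblast stem cells and the growth protocol names organoids made from them. Markers of radial glia summed to 4930, 3695 and 4865, those of upper layer neurons to 2395, 2209 and 2354 and those of deep layer neurons to 2201, 1938 and 2665 in libraries 1, 2 and 3. Of 6 pluripotency markers, only Pou5f1 was abundant enough to test, and Nanog summed to 1, 5 and 3. Markers of the cortical hem and choroid plexus summed to 3110, 811 and 517, so library 1 stood apart in them.

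All 9 genes lie on autosomes, 4 of them on chromosome 4. By limma, 6 of the 9 were lower from Spret (Nfia, Nfib, Nfix, Pou3f2, Pou3f3 and Pou6f1), 0 were higher from Spret and 3 were not called (Nfic, Pou3f1 and Pou2f1). At an unadjusted p under 0.05 the number higher from Spret was also 0. Over all 15985 tested genes, 30.4% were called, 22.8% as lower from Spret and 7.56% as higher, and over the 15456 on autosomes 28.4%, 20.7% and 7.78%. The median log2 ratio of Spret over B6 was -0.33 over the 9 genes and -0.13 over autosomal genes. After each library was centred on that autosomal median, 5 of the 9 were lower from Spret and 1, Pou2f1, was higher. Centred calls over all tested genes stood at 15.9% lower from Spret and 12.9% higher.

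**Figure D1:**
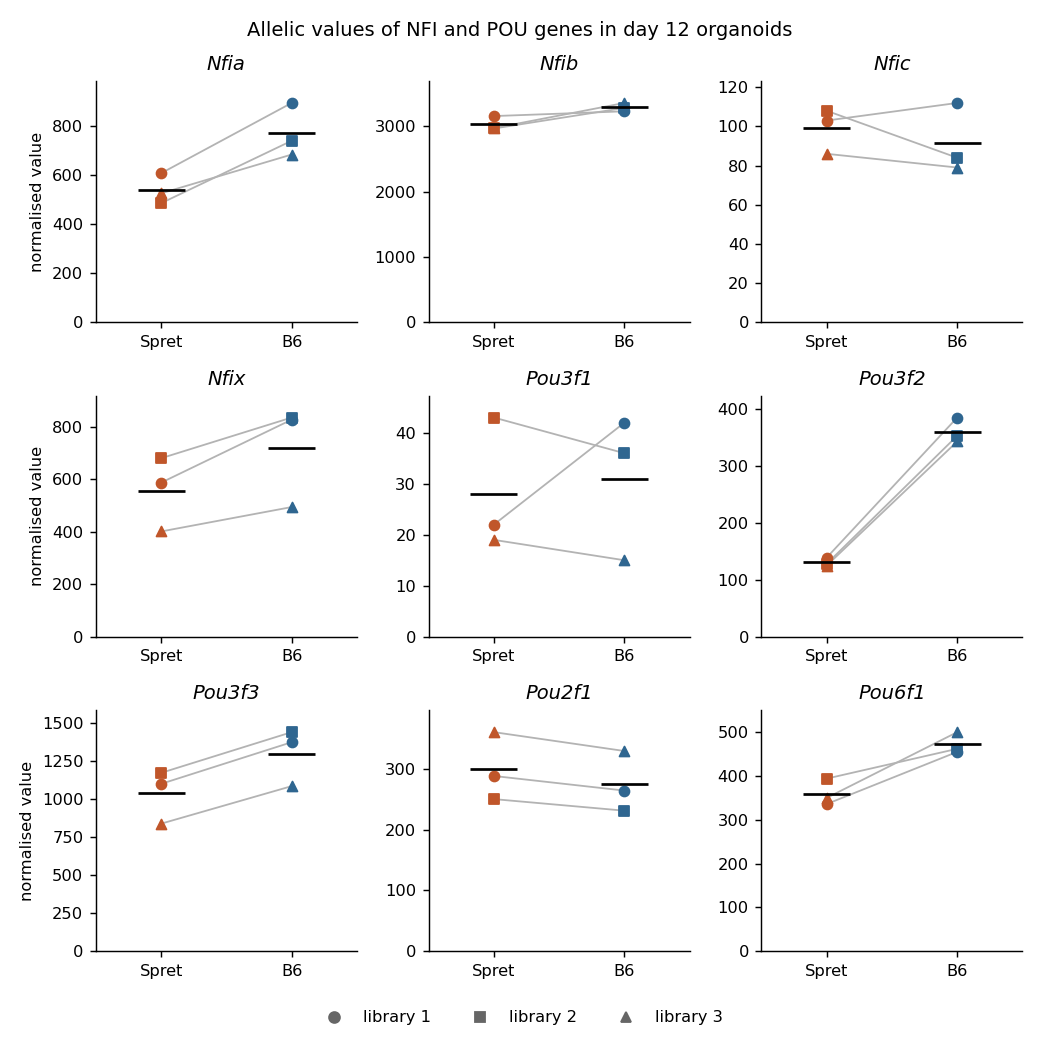
Normalised values of each gene (vertical axis, linear from 0) from the Spret and the B6 allele, with 1 point per library, a grey line joining the alleles of a library and a black bar at the mean. Lines rise toward B6 in every library for 6 genes, most steeply for Pou3f2, where Spret averaged 131 and B6 360, while Nfic, Pou3f1 and Pou2f1 do not share that slope.

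Pou3f2 had the widest allelic difference of the 9. It read 139, 128 and 125 from Spret in libraries 1, 2 and 3, against 385, 353 and 343 from B6. The alleles did not overlap, and the Spret share of the sum was 26.5%, 26.6% and 26.7%. The log2 ratio was -1.46 ± 0.09 (SE, n = 3 libraries, limma adjusted p = 8.06e-09), so Spret was lower by 2.74-fold on the scale of log2(value + 1). Of 15456 autosomal genes tested, 349 (2.26%) had a lower ratio. About 453, 377 and 697 reads lay behind the libraries, and the 95% Wilson intervals of the Spret share, which cover counting error only, ran from 22.6% to 30.7%, 22.3% to 31.2% and 23.5% to 30.1%. The spread of the ratio between libraries, an SD of 0.01, was below the 0.15 that counting alone would give at these depths, so the closeness of the 3 libraries is not a measure of precision. Pou3f2 remained called under all 11 alternative settings, with ratios between -1.46 and -1.33 and adjusted p between 1.59e-10 and 0.00393.

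Pou3f2 is a gene without introns on chromosome 4 (22482780 to 22488366, minus strand, mm10) with no overlapping gene in the GENCODE M21 annotation. Its tested neighbours did not share its ratio. Within 1000 kb of its start there were 7 tested genes, with a median ratio of 0.01 and a range from -0.27 to 0.22, and 0 of them had a lower ratio than Pou3f2. All 7 lay on the same side, 130.8 to 760.7 kb away in the direction of transcription, so the other side was not covered within 1000 kb. The nearest tested gene on one side was Fbxl4, an F-box protein of mitochondria, at 24.0 from Spret and 28.3 from B6 and 48.7 kb away (log2 ratio -0.27 ± 0.27, adjusted p = 0.473). On the other side it was Mms22l, a DNA repair gene 2008 kb away, at 30.7 and 26.0 (0.27 ± 0.26, adjusted p = 0.469). Chromosome 4 as a whole had a median ratio of -0.12 over 896 tested genes.

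The 250 bases before the starts of Pou3f2 and Pou3f3 are shown, as these were the Pou3f genes lower from Spret. Of the 12 listed windows, their 2 were also those that held TTGGCA, the fuller NFI arm, on either strand. The sequences are RefSeq's, from C57BL/6J on GRCm38.p6, and read 5′ to 3′ on the gene's strand. Capitals mark the arm TTGGCA or its reverse complement TGCCAA. The Spret sequence was not read.
Pou3f2, chr4:22488367-22488616, minus strand: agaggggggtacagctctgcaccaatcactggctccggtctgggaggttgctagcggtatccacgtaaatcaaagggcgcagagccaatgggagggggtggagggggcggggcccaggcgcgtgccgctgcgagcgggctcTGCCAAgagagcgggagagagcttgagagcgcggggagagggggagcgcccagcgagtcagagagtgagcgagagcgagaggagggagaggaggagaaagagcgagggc
Pou3f3, chr1:42695518-42695767, plus strand: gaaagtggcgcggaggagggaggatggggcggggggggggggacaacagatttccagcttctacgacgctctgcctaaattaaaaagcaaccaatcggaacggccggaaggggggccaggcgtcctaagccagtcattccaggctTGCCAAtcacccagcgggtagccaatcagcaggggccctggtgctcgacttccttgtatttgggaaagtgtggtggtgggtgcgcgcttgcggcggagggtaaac
RefSeq windows were found for 7 of the 9 genes, 12 windows in all, each with 250 bases before and 50 after a RefSeq start. Nfib and Pou3f1 had no window. RefSeq starts can differ from the ends of the GENCODE spans given here. The Nfia window (97581693 to 97581942) lies outside its span, and those of Nfic, Nfix and some of Pou2f1 lie inside theirs. For Nfia, Nfic and Nfix the GENCODE starts were therefore not searched. The windows of Nfia, Nfix and Pou6f1, which were also lower from Spret, held no TTGGCA on either strand. The shorter arm TTGGC was not counted on its own. On either strand, TTGGCA was in 2 of the 12 windows and in 14.1% of 32851 windows of that length. The octamer ATGCAAAT was in 0 of the 12 windows and in 1.74% of all. The NFI palindrome, TTGGC and GCCAA with 5 bases between them, was in 0 of the 12 and in 0.0365% of all, and it overlaps TTGGCA where its next base is A. The Pou3f2 stretch held 18 CpG at 66.8% GC and the Pou3f3 stretch 15 CpG at 60.8% GC.

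Pou3f3 was the most abundant POU gene and was lower from Spret by a smaller amount. It read 1098, 1170 and 837 from Spret and 1371, 1437 and 1083 from B6. Library 3 was lowest in both alleles, and its B6 value lay below the Spret values of the other libraries, while within each library Spret was lower. The Spret share was 44.5%, 44.9% and 43.6%, and the log2 ratio was -0.33 ± 0.05 (SE, limma adjusted p = 0.000124), or -0.21 after centring (adjusted p = 0.00556). Its call ended without limma's intensity trend (adjusted p = 0.115) and without the pairing of alleles by library (0.328), over a range from 3.38e-05 to 0.328 in 11 alternatives.

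Pou3f3 lies on chromosome 1 (42695768 to 42703176, plus strand), between a pair of noncoding RNAs. Pantr1, 0.926 kb away, read 186, 228 and 222 from Spret and 276, 267 and 266 from B6, and was lower from Spret (-0.35 ± 0.10, adjusted p = 0.013), a call that ended after centring (-0.23, adjusted p = 0.0921) and without library 1 (-0.24, 0.163). Pantr2, 3.88 kb away on the other side, read 3, 14 and 11 from Spret and 22, 32 and 27 from B6, and was lower from Spret by more (-1.63 ± 0.36, adjusted p = 0.0032). Its values are low, and its call ended without library 1 (-1.18, adjusted p = 0.0538), with no filter on low values (0.146) and without the pairing of alleles (0.0598). The call of Pantr1 also ended with no filter (0.172), without the trend (0.146) and without the pairing (0.229). In all 3 libraries all 3 genes of this locus were lower from Spret. Of 11 tested genes within 1000 kb of the Pou3f3 start, 5 were lower from Spret and 0 higher, with a median of -0.40. Over chromosome 1 as a whole, 233 of 1043 tested genes were lower from Spret and 66 higher, with a median of -0.16.

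Pou3f1 (Oct6, known from Schwann cell myelination and the epiblast) was the least abundant of the 9, and its alleles could not be ordered. It read 22, 43 and 19 from Spret and 42, 36 and 15 from B6. Spret was lower in library 1 and higher in libraries 2 and 3. The log2 ratio was -0.11 with a 95% interval from -0.74 to 0.52 (limma adjusted p = 0.812), on about 55, 62 and 50 reads per library. The sign turns to 0.29 without library 1 and to 0.01 after centring. Pou3f1 lies on chromosome 4 (124656807 to 124660655), where the antisense gene Gm2164 overlaps it, at 8, 14 and 3 from Spret and 1, 1 and 1 from B6, too low to test. The Pou3f genes share a conserved POU domain, and the sources used here do not say how reads that match several genes were counted.

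**Figure D2:**
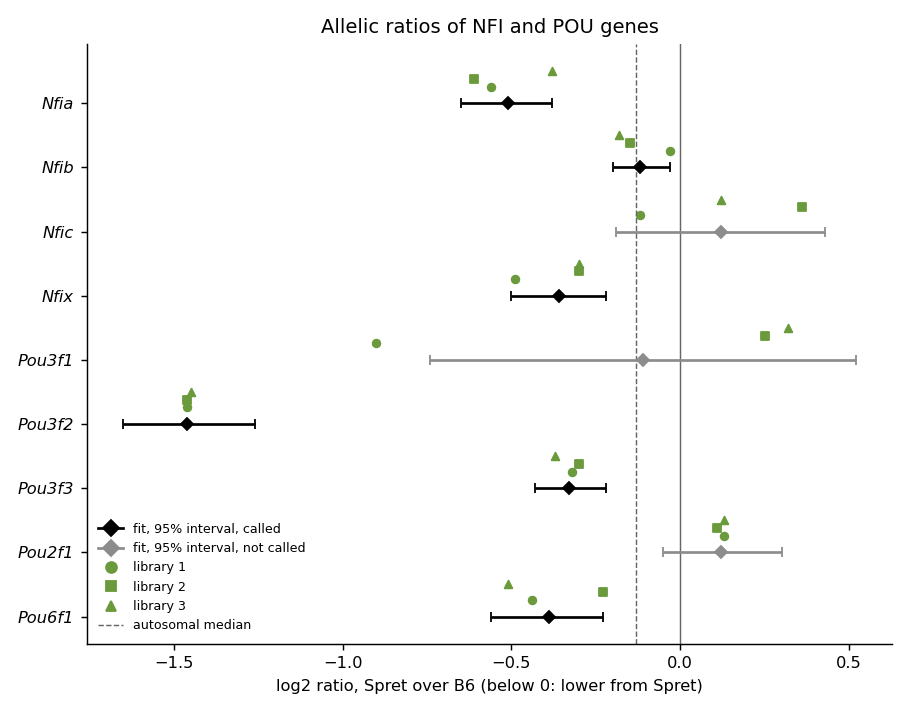
Log2 ratio of Spret over B6 (horizontal axis) for each gene, with the limma estimate and its 95% interval as a diamond and bar and each library as a green symbol. Pou3f2 lies apart at -1.46, and Nfia, Nfix, Pou3f3 and Pou6f1 lie between -0.51 and -0.33. Nfib, at -0.12, sits at the autosomal median of -0.13 and moves to 0.01 after centring, as does Pou3f1.

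Of the other POU genes of the 9, Pou6f1 was lower from Spret and Pou2f1 was not called. Pou6f1, a POU factor first described in brain, read 336, 394 and 350 from Spret and 455, 462 and 500 from B6. Every Spret value was below every B6 value. The log2 ratio was -0.39 ± 0.08 (SE, limma adjusted p = 0.00129) and -0.27 after centring (adjusted p = 0.016). Pou2f1 (Oct1, a widely expressed octamer factor) read 288, 250 and 360 from Spret and 264, 231 and 329 from B6. Its Spret value was the higher one in 3 of 3 libraries, at shares of 52.2%, 52.0% and 52.2%, but the alleles overlapped between libraries. The Wilson interval of each library included equal shares. The SD of its ratio between libraries, 0.01, was below the 0.13 of counting alone, so the likeness of the shares does not measure precision. The ratio was 0.12 with an interval from -0.05 to 0.30 and was not called (adjusted p = 0.279). After centring it was 0.25 and passed the threshold (adjusted p = 0.0351), the 1 of 11 alternatives in which it did, with adjusted p up to 0.78 in the others.

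Around Pou2f1 on chromosome 1 (165865154 to 166002678) the nearest tested gene without overlap, Creg1, a secreted glycoprotein gene 89.8 kb away, was lower from Spret (-1.26 ± 0.21, adjusted p = 0.000435, but 0.093 with no filter on low values), with 32.3 from Spret and 75.0 from B6. Cd247, a T cell receptor subunit gene whose span overlaps Pou2f1 on the other strand, was not called (-0.32, adjusted p = 0.248). Pou6f1 lies on chromosome 15 (100575318 to 100599984), 0.22 kb from the noncoding Gm49492, which stood at 15.7 from Spret and 28.3 from B6 (-0.82 ± 0.31, adjusted p = 0.0614). The sources used here do not say whether reads were assigned by strand, so reads in overlapping stretches cannot be assigned to one gene.

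Among NFI genes, Nfia had the widest difference. It read 606, 484 and 524 from Spret and 892, 738 and 682 from B6, and no Spret value reached a B6 value. The Spret share was 40.5%, 39.6% and 43.4%, and the log2 ratio was -0.51 ± 0.06 (SE, limma adjusted p = 2.28e-05), or -0.39 after centring (adjusted p = 0.000264). Nfix read 587, 680 and 401 from Spret and 827, 835 and 494 from B6. Library 3 was low in both alleles, so the alleles overlapped between libraries, but Spret was lower in 3 of 3. The ratio of Nfix was -0.36 ± 0.06 (adjusted p = 0.000617) and -0.24 after centring (0.0115).

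Nfib was the most abundant of the 9 and nearly balanced. It read 3156, 2966 and 2971 from Spret and 3229, 3281 and 3357 from B6. The alleles did not overlap, but the gap was narrow. The Spret share was 49.4%, 47.5% and 47.0%, on about 5525, 4895 and 9419 reads, and its Wilson interval in library 1, from 48.1% to 50.7%, includes equal shares. The log2 ratio of -0.12 ± 0.04 was called (limma adjusted p = 0.0336), but it is close to the autosomal median of -0.13 and became 0.01 after centring (adjusted p = 0.941). Leaving out library 2 or library 3 also ended the call (adjusted p = 0.175 and 0.188). Nfic read 103, 108 and 86 from Spret and 112, 84 and 79 from B6, lower from Spret in library 1 and higher in libraries 2 and 3. Its ratio of 0.12 had an interval from -0.19 to 0.43 and was not called (adjusted p = 0.576).

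The calls of Nfia, Nfix and Pou6f1 ended with no filter on low values, without the intensity trend and without the pairing of alleles (adjusted p from 0.052 to 0.432). Differences between the ratios of 2 genes of a family were not tested.

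Genes that overlap the NFI genes or lie beside them had ratios of both signs, and their differences from the NFI genes were not tested. Gm11266, an antisense RNA within the span of Nfib on chromosome 4 (82290173 to 82705750, minus strand), read 180, 145 and 130 from Spret and 94, 77 and 53 from B6. The alleles did not overlap, and it was higher from Spret (1.04 ± 0.14, adjusted p = 3.97e-05), opposite to the sign of Nfib before centring. E130114P18Rik, which overlaps Nfia on chromosome 4 (97772734 to 98118874) on the other strand, read 171, 167 and 126 from Spret and 233, 186 and 142 from B6 and was not called (-0.26, adjusted p = 0.0893). Lyl1, a blood transcription factor gene annotated within the span of Nfix on chromosome 8 (84699876 to 84800344) on the other strand, read 69, 126 and 61 from Spret and 134, 145 and 68 from B6 and was not called (-0.43, adjusted p = 0.0631, but 0.048 with a pseudocount of 5). Dand5, a secreted BMP and Nodal antagonist gene 15.1 kb from Nfix, was higher from Spret at 110 against 43.7 from B6 (1.34 ± 0.18, adjusted p = 3.59e-05, but 0.0554 with no filter on low values). Beside Nfic on chromosome 10 (81396186 to 81455635), Celf5, an RNA-binding protein gene, was lower from Spret (-0.26 ± 0.08, adjusted p = 0.0194), a call that ended after centring (-0.14, adjusted p = 0.201) and without library 1 (0.201) or library 3 (0.146). It also ended with no filter, without the trend and without the pairing (0.244, 0.231 and 0.486).

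**Figure D3:**
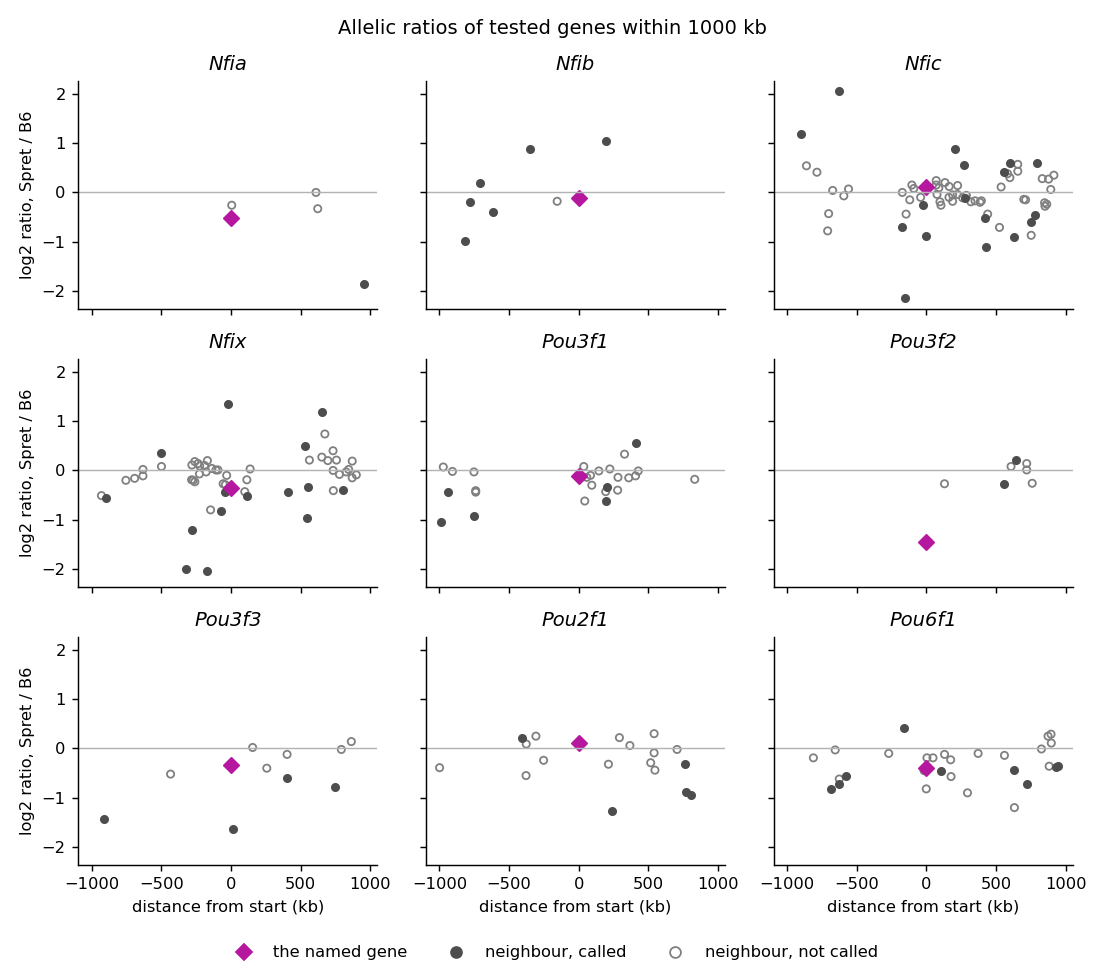
Log2 ratio of Spret over B6 (vertical axis) of tested genes whose start lies within 1000 kb of the start of each named gene (horizontal axis, in kb, positive in the direction of transcription), with called neighbours filled and the named gene as a diamond. The 7 neighbours of Pou3f2 lie between -0.27 and 0.22, above its -1.46, whereas Nfix and Nfic lie inside the range of their 56 and 66 neighbours.

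Levels of the 9 genes, both alleles together, were compared per kb of annotated exon. Reads without a difference between the strains do not enter the table, so this scale is approximate. Nfib led with 423 ± 4.64 per kb (mean ± SD, n = 3), followed by Pou3f3 at 315 ± 49.1. Nfix at 173 ± 45.3, Nfia at 120 ± 15.1 and Pou6f1 at 120 ± 5.17 overlapped over libraries, though Nfix was above Nfia in 3 of 3. Pou3f2 came next at 87.9 ± 5.25, below Pou6f1 in 3 of 3 libraries. Pou2f1 at 34.6 ± 6.37 and Nfic at 28.8 ± 3.77 overlapped, though Pou2f1 was the higher in 3 of 3, and Pou3f1 was lowest at 15.3 ± 5.95.

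**Figure D4:**
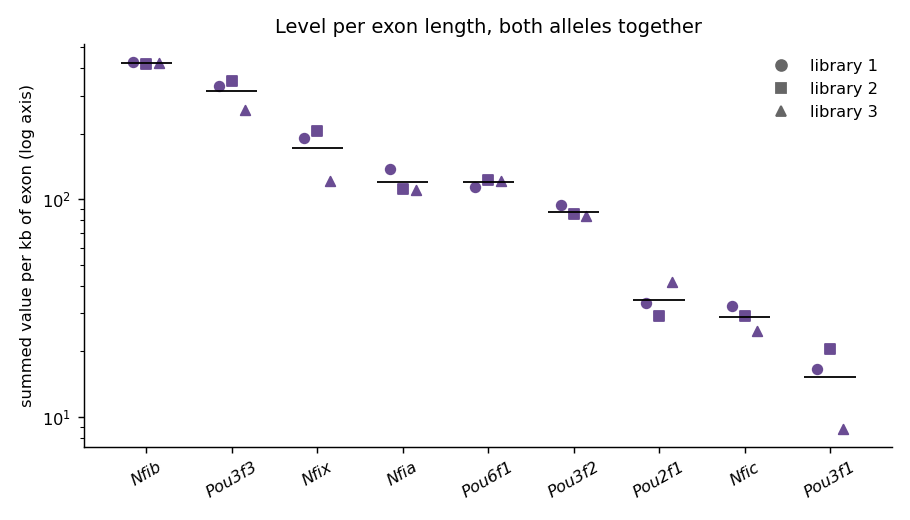
Summed value of both alleles per kb of exon (vertical log axis) for each gene in each library, ordered by the mean, which a bar marks. Nfib is even across libraries, while Nfix, Pou3f3, Pou3f1, Nfia, Pou3f2 and Nfic are lowest in library 3.

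Libraries differed most in Pou3f1, Nfix and Pou2f1. Pou3f1 summed to 64, 79 and 34 in libraries 1, 2 and 3, Nfix to 1414, 1515 and 895 and Pou3f3 to 2469, 2607 and 1920, each lowest in library 3. Pou2f1 was highest there, at 552, 481 and 689. Nfia was highest in library 1, at 1498, 1222 and 1206. Library 1 also had the highest sum for several marker lists. Among them were hem and choroid plexus, radial glia (4930, 3695 and 4865), intermediate progenitors (2611, 2184 and 2090) and Cajal-Retzius cells (1781, 1048 and 1229). Markers of deep layer neurons and astrocytes were highest in library 3. The part of any of these cells in the level of Nfia was not tested. Nfib, at 6385, 6247 and 6328, had a coefficient of variation of 1.1%, and Pou6f1 one of 4.32%. In bulk libraries, fewer cells that express a gene and less RNA per cell cannot be told apart.

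The genes whose profile over the 6 allele columns was nearest to that of Nfib, by Euclidean distance of centred log2 values among 6244 genes with a mean of at least 100, included Hspa4, a heat shock protein gene (distance 0.0886), and the transcript Gm43738 (0.101). Those nearest to Pou3f3 were Ccdc124, a gene for a ribosome-associated protein (0.191), Bcl11a, a zinc finger factor of cortical neurons (0.196), and Prdm8, a zinc finger factor of the cortex (0.208). These 6 columns come from 3 libraries and are a thin basis for likeness.

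Relatives and partners of these factors were described with lists of 48 genes in all, of which 37 were tested. The counts below stand beside the 22.8% lower and 7.56% higher from Spret over all 15985 tested genes. Of 5 other POU genes that were tested, 1 was higher and 3 lower from Spret. Pou2f2 (Oct2) read 60, 57 and 60 from Spret and 80, 93 and 108 from B6, and was lower from Spret (-0.65 ± 0.16, adjusted p = 0.00728), though not without library 3 (0.0882). Pou4f1 (Brn3a), a factor of sensory neurons, was higher from Spret at 25, 19 and 15 against 12, 4 and 11 from B6 (1.14 ± 0.38, adjusted p = 0.0339), though its call ended without library 1 (0.15) or library 2 (0.205). Pou5f1 (Oct4), the pluripotency factor on chromosome 17, read 0, 4 and 0 from Spret and 57, 59 and 13 from B6, and was lower from Spret (adjusted p = 5.22e-06). Pou5f1 has processed pseudogenes, so the origin of its reads is uncertain, and this was not tested. The X-linked Pou3f4 (Brn4) was listed at 0 from Spret in every library and read 27, 10 and 24 from B6, as do X-linked genes in general here. With no filter, the calls of Pou2f2, Pou4f1 and Pou5f1 ended (0.114, 0.254 and 0.0659). Those of Pou2f2 and Pou4f1 also ended without the trend (0.0535 and 0.102) and without the pairing (0.0762 and 0.151).

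Of 13 tested partners of POU factors, 2 were higher and 5 lower from Spret, but 2 of the 5, Pqbp1 and Hcfc1, are X-linked. The median of -0.42 includes these X-linked genes, at -8.53 and -9.40. After centring, 4 partners were higher and 5 lower, with the X-linked genes still included. The highest in level of those lower from Spret, Sox11, an SRY-box factor of newborn neurons, read 5512, 5070 and 5080 from Spret and 7130, 6812 and 6992 from B6 (-0.42 ± 0.03, adjusted p = 6.58e-08). Sox2, the neural stem cell factor that pairs with POU proteins on DNA, was higher from Spret at 131, 77 and 121 against 88, 63 and 65 from B6 (0.58 ± 0.16, adjusted p = 0.0116), a call that ended without library 1 (0.1) or library 3 (0.144). Snapc3, a subunit of the complex that Pou2f1 helps to bring to small nuclear RNA promoters, had the highest level of those higher from Spret (0.20 ± 0.06, adjusted p = 0.0166), and its call ended without library 1 (0.14) or library 2 (0.0735). The calls of Sox11, Sox2 and Snapc3 ended without the trend (0.0741, 0.0876 and 0.269) and without the pairing (0.149, 0.192 and 0.523), and those of Sox2 and Snapc3 also with no filter (0.166 and 0.128).

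Of 7 tested genes reported as Pou3f targets, 28.6% were called, near the 30.4% over all tested genes. Among them 1 was higher from Spret, Fabp7 of radial glia (0.25 ± 0.06, limma adjusted p = 0.00821, but 0.0571 without library 2 and 0.0576 without library 3). There was 1 lower, Eomes of intermediate progenitors (-0.27 ± 0.06, adjusted p = 0.00426), whose call ended after centring (0.0945) and without library 1 (0.0871). Dll1, a Notch ligand, Nes, the intermediate filament of progenitors, Dab1, the reelin adaptor, and Cdk5r1, the activator of Cdk5, had ratios of 0.22, -0.17, 0.19 and 0.03 and were not called, though Dab1 was higher from Spret after centring (0.32, adjusted p = 0.00684). The calls of Fabp7 and Eomes also ended with no filter (0.125 and 0.12), without the trend (0.201 and 0.18) and without the pairing (0.482 and 0.462).

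Of 12 tested partners and reported targets of NFI proteins, 1 was higher and 5 lower from Spret, with a median of -0.26. Cntn2, a cell adhesion molecule of axons, had the highest level, at 989, 971 and 810 from Spret against 1936, 2349 and 1729 from B6 (-1.11 ± 0.06, adjusted p = 6.2e-10). Mmd2, a gene that Nfia and Sox9 control in mouse astroglia, read 44, 28 and 41 from Spret and 176, 149 and 177 from B6 (-2.14 ± 0.16, adjusted p = 4.7e-08). Apcdd1, a Wnt antagonist gene of the same program, was lower from Spret (-0.70 ± 0.11), as was Slc1a3, a glial glutamate transporter gene (-0.58 ± 0.07). Sox9 itself was lower too (-0.39 ± 0.12, limma adjusted p = 0.019), a call that ended after centring (-0.27, 0.097). Bbx, an HMG-box factor gene, was the 1 higher from Spret (0.35 ± 0.09, adjusted p = 0.00916), and its call ended without library 1 (0.155). The 6 not called were Gfap (0.31), Zcchc24 (0.27), Aldh1l1 (0.02), Cdh2 (-0.01), Ezh2 (-0.12) and Aqp4 (-0.45). After centring, Gfap was higher from Spret (0.43, limma adjusted p = 0.0429). The calls of Apcdd1 and Bbx ended with no filter (0.126 and 0.184) and without the trend (0.0646 and 0.154), and those of Apcdd1, Bbx and Slc1a3 without the pairing (0.113, 0.459 and 0.184). Cntn2 and Mmd2 remained called under all 11 alternatives. These counts stand beside the 30.4% called over all tested genes, and they do not show whether any of these genes responds to the factors here.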

How the data were processed

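RNA of 3 day 12 organoid libraries was read by allele in 6 columns. The libraries were depleted of ribosomal RNA, per the labels' protocols, and the submitters' processing notes name the build mm10. The deposited values are a score, that is normalised allele-specific read numbers, per the name of the table, and all of them are whole numbers. The aligner, allele assignment, counting and normalisation are not given in the sources used here. Any preference of alignment for the B6 genome would lower Spret values, and this was not tested.

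Scale factors of 1.1557, 1.2761 and 0.6718 for libraries 1, 2 and 3 were estimated from numbers that no gene held and numbers held too often. They served for approximate read numbers and Wilson intervals only, since a factor below 1 merges reads.

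Log2(value + 1) of genes with a mean of at least 10 was fitted with limma 3.58.1 under R 4.3.3, on allele and library, with a trend over intensity. P-values were two-sided with Benjamini-Hochberg adjustment over 15985 genes and a threshold of 0.05. The pairing of alleles comes from the material, since both were read from the same RNA. The fit had 2 residual degrees of freedom and 12.3 from the prior. The fit was tested on simulated data. Alternatives were 2 pseudocounts, 2 filters, centring, no trend, no library term, autosomes alone and each library left out.

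Positions came from GENCODE M21 (GRCm38, which mm10 names) for 42620 genes and from RefSeq for 899, with 741 unplaced. A protein comparison had been planned and was not run. The genes and lists were chosen with earlier results of these data known. Named genes are the 9, genes overlapping them, the nearest tested gene on each side, Pantr1 and Pantr2, list members that lead by level in each direction and the 3 nearest profiles of Nfib and Pou3f3, of which 1 is not reported here. Further list and neighbour genes were named after their values were seen.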

Additional observations from a re-analysis of the deposited data

How the results depend on the processing

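Of the 9 genes, Pou3f2 kept its direction and its call under all 11 alternatives. Ratios did not change sign except those of Nfib after centring (0.0051) and of Pou3f1 after centring (0.01) and without library 1 (0.29). Genes higher from Spret numbered 1209 and genes lower from Spret, called for B6, 3643. They numbered 189 and 1047 with no filter on low values, 469 and 1760 without the intensity trend, 267 and 1270 with no replicate block, and 2059 and 2537 after centring, where 1 of the 9 genes was higher from Spret, Pou2f1 (0.25, adjusted p = 0.0351). Leaving out each library gave 581 to 991 genes higher from Spret and 2086 to 3010 lower. Of the 9 genes, 2 were lower from Spret with no filter, 1 without the trend and 1 with no replicate block, against 6.

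Without the pairing of alleles, that is with no replicate block, the ratios of Nfia (-0.51), Nfib (-0.12), Nfix (-0.36), Pou3f3 (-0.33) and Pou6f1 (-0.39) were as before but no longer called (adjusted p = 0.0856, 0.715, 0.432, 0.328 and 0.15), and the same 5 lost their calls without the trend (0.0594, 0.487, 0.111, 0.115 and 0.106). With no filter, which adds genes of few reads to the trend, Nfia, Nfib, Nfix and Pou6f1 lost theirs (0.052, 0.217, 0.0886 and 0.111). Leaving out a library put Nfib between -0.16 and -0.09. Pathway list genes higher and lower from Spret numbered 5 and 14, of which the X-linked Pou3f4, Pqbp1 and Hcfc1 were among the lower. With autosomal genes alone they numbered 6 and 11. With X-linked genes included, they numbered 0 and 9 with no filter, 0 and 8 without the trend, 0 and 7 with no replicate block and 9 higher after centring. Where that number was 0 by limma, 8, 2 and 2 of them were higher at an unadjusted p under 0.05. Leaving out each library gave 1 to 4 higher. The cause of these changes was not tested. Depth limits Pou3f1 and Nfic most, with 50 to 62 and 151 to 246 reads per library.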
